A study of Gallus gallus with 10 samples.

Results

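Glycolysis and hypoxia-response genes were examined in the choroid of the chick eye, the vascular and pigmented layer behind the retina. The set was drawn up from pathway knowledge as 36 gene symbols, and a gene of the expression table belonged to it when its common name matched one of them exactly. The match found 30 of the 36 symbols among 24355 genes, with 1 row each. SLC2A3, PGK1, PKM, EGLN1, ADM and ANKRD37 had no row under these names. RefSeq (GRCg7b) gives the first 3 as synonyms of SLC2A14, PGK2 and PKLR, which the table does list, and these 3 rows are described apart from the 30. EGLN1, ADM and ANKRD37 are not analysed here.

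The study asked what nitric oxide does to choroidal transcripts. It used 5 choroids exposed to PAPA-NONOate, a compound that releases nitric oxide as it decays, at 1.5 mM for 24 hours (37 °C, 5% CO2), and 5 control choroids labelled as without it. All 10 were whole-tissue samples from normal chicks of the strain labelled Domesticus at day 15 after hatching, and the labels repeat 1 incubation text for both groups. Replicates are numbered 2, 3, 4, 5 and 8 in both groups, and values by library are given in that order. Whether each replicate was a different animal is not in the labels. The p-values here therefore reflect the variation among these 10 samples, which may be technical. Treated libraries also carry the letter R and controls the letter L, and what these letters stand for cannot be told apart from the treatment.

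Glycolysis splits glucose into pyruvate in the cytosol and yields ATP without oxygen. Pyruvate then becomes lactate through lactate dehydrogenase, or enters the mitochondrion through pyruvate dehydrogenase, which the PDK kinases switch off. The hypoxia-inducible factors HIF-1alpha (HIF1A) and HIF-2alpha (EPAS1) are hydroxylated by the EGLN enzymes when oxygen is present and are then degraded. When oxygen falls they persist and drive transcription of many genes, including many of this set. In mammalian cells nitric oxide is known to act on this system at the level of HIF protein and on mitochondrial respiration, neither of which was measured. The choroid supplies oxygen and glucose to the outer retina, the avian retina having no vessels of its own.

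Values are FPKM, fragments scaled to transcript length and to library size, so that levels can be compared between genes per length. The files used here hold no read counts and the absolute depth is unknown. Steps between low FPKM values put the relative depths within 1.52-fold of each other. Summed FPKM ran from 394921 to 535194 with PAPA-NONOate and from 470676 to 605493 in controls, the lowest being PAPA-NONOate replicate 2. Scaling factors from median ratios were 0.760 to 1.08 with PAPA-NONOate and 0.962 to 1.18 in controls, and PAPA-NONOate replicate 2 was again lowest. The median gene had a log2 fold change of -0.18, against which the changes below are to be read. Endothelial markers, expected of a vascular layer, summed to 502 to 840.0 FPKM with PAPA-NONOate and 619 to 888 FPKM in controls. Melanocyte markers were present but uneven, at 9.62 to 185 FPKM with PAPA-NONOate and 18.6 to 459 FPKM in controls. Of 13 markers of retina and pigment epithelium, 9 lay under 1 FPKM in every library, RPE65 among them. Of the 2 that could be tested 1 (LRAT) fell, as did 7.41% of all genes. This list summed to 47.2 to 155 FPKM with PAPA-NONOate and 49.98 to 126 FPKM in controls, and GLUL, glutamine synthetase, held most of that, at 46.0 to 153 FPKM with PAPA-NONOate and 47.7 to 120.4 FPKM in controls.

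With PAPA-NONOate, 1 of the 29 members that could be tested passed the threshold, and 28 did not. That 1 was TPI1, triosephosphate isomerase, which was lower. Of all 11363 genes tested 9.34% passed, 1.93% higher and 7.41% lower, so the share among the members (3.45%) was below the background and is no result about the set. At an unadjusted p under 0.05 there were 7 of 29 members (24.1%), beside 28.1% of all genes. The median log2 fold change of the members was -0.22, which is -0.04 relative to the median gene, and single members ran from -1.04 to 0.33. In FPKM as deposited 23 of the 29 lay below 0, while relative to the median gene 17 lay below and 12 above. After median-ratio scaling of the libraries the calls were others: PDK1, HIF1A and BNIP3 were called higher and no member lower, with 7.03% of all genes called higher and 6.43% lower on that scale (13.5% in all). After quantile normalization PDK1 and BNIP3 were called higher and TPI1 lower, where 6.45% of all genes were higher and 5.98% lower (12.4% in all). The 95% interval excluded a 2-fold change in either direction for 23 of 29 members, and a 1.5-fold change for 10, compared with 79.9% and 43.3% of all genes.

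**Figure D1:**
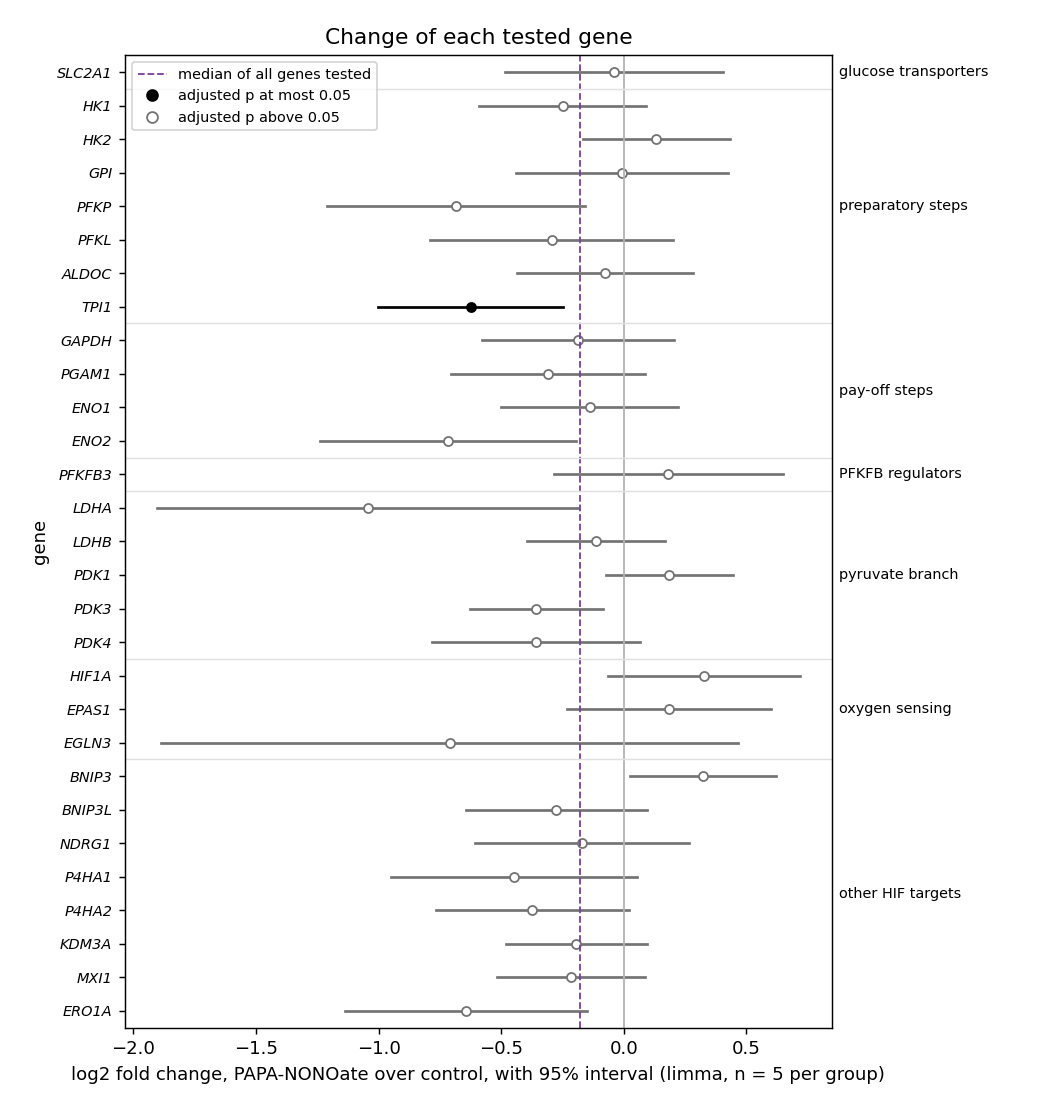
Log2 fold change of each of the 29 tested genes, PAPA-NONOate over control, with its 95% interval from limma (5 libraries per group), ordered by role. The dashed line is the median of all genes tested (-0.18). Only the interval of TPI1 is drawn in black, as the gene with an adjusted p at most 0.05. The widest intervals are those of LDHA and EGLN3.

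Glucose uptake was represented by SLC2A1, the facilitative transporter GLUT1. It stood at 66.2, 111, 109, 118 and 136 FPKM with PAPA-NONOate and at 111, 73.9, 143.5, 113 and 109.7 FPKM in controls. The groups overlapped almost completely, with the lowest value in PAPA-NONOate replicate 2 and the highest in control replicate 4. Its log2 fold change was -0.04 (95% interval -0.48 to 0.41, adjusted p = 0.922), and it turned positive (0.15) after median-ratio scaling. SLC2A14, the row with GLUT3 among its RefSeq synonyms, averaged 67.7 ± 12.5 FPKM with PAPA-NONOate and 66.3 ± 9.23 FPKM in controls (SD, n = 5). It did not pass (log2 fold change 0.02, adjusted p = 0.936).

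**Figure D2:**
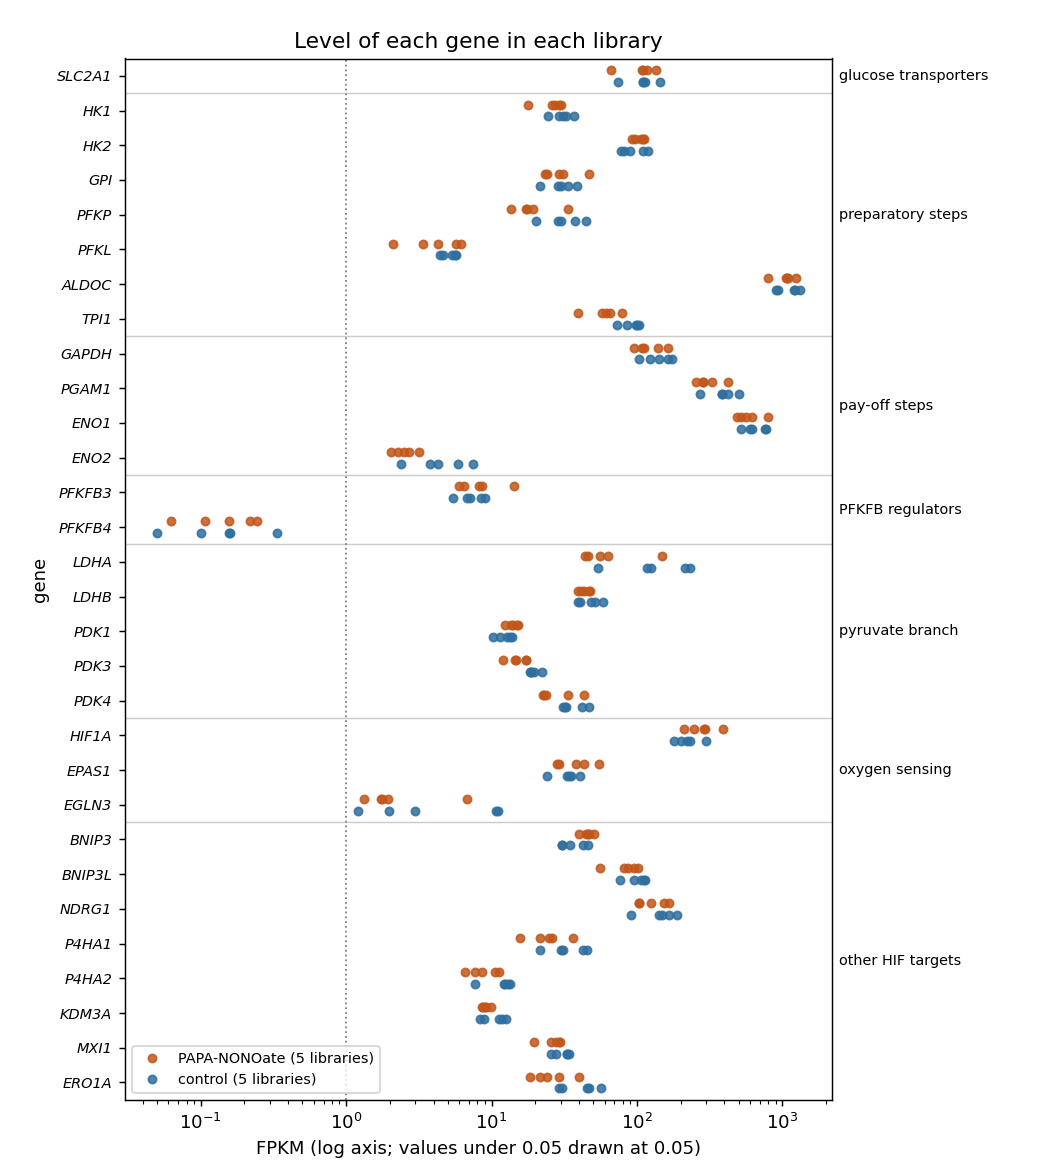
FPKM of the 30 genes found, on a log axis, 1 point per library, with PAPA-NONOate above control in each row and genes ordered by role. ALDOC and ENO1 lie highest and PFKFB4 lies under 1 FPKM (dotted line) in all 10 libraries. The groups overlap for every gene drawn except PDK3.

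Among the enzymes of the preparatory steps, which spend ATP to cut glucose into triose phosphates, only TPI1 passed. TPI1 (ENSGALG00000014526) interconverts the 2 triose phosphates. Its values were 39.4, 65.1, 57.3, 60.9 and 79.0 FPKM with PAPA-NONOate, against 85.2, 72.5, 99.7, 98.1 and 103 FPKM in controls. All 5 treated libraries lay below the control mean, and the groups overlapped only through PAPA-NONOate replicate 8 and control replicate 3. On the log2 scale it was lower by a fold change of -0.62 (SE 0.17, adjusted p = 0.0420), or -0.45 relative to the median gene. The call was lost after median-ratio scaling (adjusted p = 0.0609). Leaving out single libraries also ended it, with adjusted p from 0.0509 to 0.0925, for 3 treated libraries (replicates 2, 3 and 4) and 4 controls (replicates 2, 4, 5 and 8).

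PFKP, the platelet-type phosphofructokinase of the committed step, read 13.5, 19.2, 17.2, 17.5 and 33.4 FPKM with PAPA-NONOate, against 28.5, 20.2, 44.9, 37.8 and 30.2 FPKM in controls. In 4 treated libraries it was below every control, while PAPA-NONOate replicate 8 sat among the controls. At -0.69 (95% interval -1.21 to -0.16) its log2 fold change did not pass (adjusted p = 0.0935), except without PAPA-NONOate replicate 8 (adjusted p = 0.0296). Its paralog PFKL, the liver-type enzyme, was much lower in level, at 4.33 ± 1.66 FPKM with PAPA-NONOate and 5.14 ± 0.593 FPKM in controls (SD, n = 5). The hexokinases trap glucose in the cell. HK2, the more abundant of them here, averaged 104 ± 8.19 FPKM with PAPA-NONOate and 95.5 ± 18.1 FPKM in controls, and HK1 26.1 ± 4.86 and 30.8 ± 4.49 FPKM (SD, n = 5). Neither passed, with adjusted p of 0.558 and 0.321. Log2 fold changes were -0.01 for GPI, glucose-6-phosphate isomerase, and -0.08 for the aldolase gene ALDOC, both positive after median-ratio scaling (0.18 and 0.11). ALDOC was the most abundant member, at 1054 ± 162 FPKM with PAPA-NONOate and 1113 ± 188 FPKM in controls (SD, n = 5).

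None of the 4 measured enzymes of the pay-off steps, which regain ATP, passed. GAPDH, glyceraldehyde-3-phosphate dehydrogenase and a common reference gene in expression assays, read 95.4, 139.9, 112, 109 and 164 FPKM with PAPA-NONOate and 123, 103, 175, 142 and 163 FPKM in controls. The groups overlapped over nearly their whole range. Its log2 fold change was -0.19 (95% interval -0.58 to 0.20, adjusted p = 0.526), that is -0.01 relative to the median gene, and 0.00 after median-ratio scaling. PGAM1, phosphoglycerate mutase, came to -0.31 on the log2 scale and ENO1, the main enolase gene, to -0.14 (adjusted p = 0.290 and 0.617). ENO2, known in mammals as the neuronal enolase, was low, at 2.54 ± 0.430 FPKM with PAPA-NONOate and 4.75 ± 1.94 FPKM in controls (SD, n = 5). Its log2 fold change of -0.72 did not pass (adjusted p = 0.0786) except without control replicate 3 (adjusted p = 0.0244). The neuron markers summed to 24.4 to 43.4 FPKM with PAPA-NONOate and 30.7 to 61.7 FPKM in controls. Of 8 tested 1 (UCHL1) rose and 1 (NEFL) fell (25%, beside 9.34% of all genes). The part of these markers in the values of ENO2 was not tested. In bulk tissue, fewer cells of a type and less RNA per cell cannot be told apart. PGK2 and PKLR, the rows that RefSeq ties by synonym to phosphoglycerate kinase and to pyruvate kinase M, did not pass either (log2 fold changes -0.14 and -0.20, adjusted p = 0.660 and 0.504). As shares of the summed FPKM, the 11 enzyme genes of both stages took 0.488 ± 0.0746% with PAPA-NONOate and 0.484 ± 0.0710% in controls (SD, n = 5). ALDOC and ENO1 held most of this share, with means of 1083.5 and 625.7 FPKM over the 10 libraries. PGK2 and PKLR were not counted in it.

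PFKFB3 makes fructose 2,6-bisphosphate, the activator of phosphofructokinase. It read 5.93, 6.42, 8.22, 8.55 and 14.3 FPKM with PAPA-NONOate, against 7.13, 5.44, 8.43, 8.97 and 6.74 FPKM in controls. Only PAPA-NONOate replicate 8 exceeded the controls. PFKFB3 did not pass (log2 fold change 0.18, 95% interval -0.29 to 0.65, adjusted p = 0.610), and without that library the fold change was -0.0077. PFKFB4 lay between 0.0629 and 0.244 FPKM with PAPA-NONOate and reached at most 0.334 FPKM in controls, where 1 library lists it at 0, and it was not tested.

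At the pyruvate branch, LDHA had the largest log2 fold change of all members and also 1 of the widest spreads. It encodes the muscle-type lactate dehydrogenase subunit, a classical HIF-1 target. Its values were 45.8, 62.8, 55.6, 44.0 and 148 FPKM with PAPA-NONOate, against 126, 54.1, 230.2, 214 and 118 FPKM in controls. All 5 treated libraries lay below the control mean, but PAPA-NONOate replicate 8 exceeded 3 controls and control replicate 3 was lower than 3 treated libraries. LDHA's log2 fold change was -1.04 (SE 0.40, 95% interval -1.90 to -0.19), which did not pass (adjusted p = 0.111). It passed without PAPA-NONOate replicate 8 (adjusted p = 0.0422) or without control replicate 3 (adjusted p = 0.0348), each the library of its group nearest to the other group. LDHB, the heart-type subunit, was at 43.6 ± 3.54 FPKM with PAPA-NONOate and 47.5 ± 7.84 FPKM in controls (SD, n = 5). Its log2 fold change, -0.11 (95% interval -0.39 to 0.17, adjusted p = 0.595), took the other sign after median-ratio scaling (0.07).

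Among the 3 pyruvate dehydrogenase kinases the log2 fold changes of PDK3 and PDK4 were negative and that of PDK1 positive. None passed as deposited. In FPKM as deposited PDK3 was the only member whose groups did not overlap, as for 9.32% of all genes. It read 12.1, 14.6, 14.7, 17.4 and 17.4 FPKM with PAPA-NONOate, against 22.2, 18.6, 18.4, 19.5 and 18.8 FPKM in controls. The gap was narrow, between 17.4 FPKM in the highest treated library and 18.4 FPKM in the lowest control. PDK3 did not pass as deposited (log2 fold change -0.36, SE 0.13, adjusted p = 0.0904) or after median-ratio scaling (-0.175, adjusted p = 0.168). On that scale PAPA-NONOate replicate 8 lay above control replicate 8, so the groups overlapped. PDK1, an established HIF-1 target, read 13.6, 12.3, 14.2, 15.1 and 15.0 FPKM with PAPA-NONOate and 13.9, 12.8, 11.5, 10.2 and 13.4 FPKM in controls. All 5 treated libraries were at or above the control mean of 12.3 FPKM. Its log2 fold change of 0.19 did not pass as deposited (adjusted p = 0.328) but did after median-ratio scaling (0.37, adjusted p = 0.0280) and after quantile normalization (adjusted p = 0.0323). PDK4, known from fasting and fatty acid use, averaged 29.2 ± 9.11 FPKM with PAPA-NONOate and 36.9 ± 7.20 FPKM in controls (SD, n = 5). Its log2 fold change was close to that of PDK3 and did not pass (-0.36, adjusted p = 0.250, and -0.175 after median-ratio scaling).

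The oxygen sensors and HIF subunits did not pass as deposited. HIF1A transcripts were abundant, at 211, 293, 288, 393 and 247 FPKM with PAPA-NONOate and 300.0, 233, 179, 201 and 221 FPKM in controls. In both groups the library highest for HIF1A was not among those highest for LDHA. For HIF1A the log2 fold change was 0.33 (95% interval -0.07 to 0.72, adjusted p = 0.258), or 0.50 relative to the median gene. After median-ratio scaling HIF1A was called higher (0.51, adjusted p = 0.0233), while after quantile normalization it was not (adjusted p = 0.0650). EPAS1 followed the same order of libraries at the top, PAPA-NONOate replicate 5 (54.8 FPKM) and control replicate 2 (40.8 FPKM), and did not pass (log2 fold change 0.19, adjusted p = 0.553). EGLN3 is a prolyl hydroxylase that HIF itself induces. It read 1.94, 1.73, 1.76, 1.32 and 6.81 FPKM with PAPA-NONOate, against 2.96, 1.97, 10.8, 11.1 and 1.22 FPKM in controls. PAPA-NONOate replicate 8 and control replicates 4 and 5 stood apart from the other 7 libraries, and the spread within each group was larger than the difference between them (log2 fold change -0.71, 95% interval -1.89 to 0.47, adjusted p = 0.414).

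None of the 8 other HIF targets that were measured passed as deposited, and 1 did after scaling. BNIP3, a receptor for the removal of mitochondria, read 46.4, 40.2, 44.6, 51.0 and 46.5 FPKM with PAPA-NONOate, against 42.8, 30.6, 30.7, 34.4 and 45.7 FPKM in controls. All 5 treated libraries exceeded the control mean of 36.9 FPKM, and 2 controls lay within the treated range. BNIP3's log2 fold change was 0.32 (SE 0.14, adjusted p = 0.147) as deposited and 0.51 after median-ratio scaling (adjusted p = 0.0183). Its paralog BNIP3L was at 84.2 ± 17.6 FPKM with PAPA-NONOate and 101 ± 15.2 FPKM in controls (SD, n = 5), and did not pass (adjusted p = 0.311). ERO1A, the oxidase that drives disulfide formation in the endoplasmic reticulum, read 18.4, 29.2, 24.3, 21.4 and 40.0 FPKM with PAPA-NONOate, against 30.5, 29.2, 56.7, 46.9 and 45.3 FPKM in controls. Every treated library was below the control mean, with PAPA-NONOate replicate 8 again the highest of its group. ERO1A did not pass (log2 fold change -0.64, adjusted p = 0.0933), except without PAPA-NONOate replicate 8 (adjusted p = 0.0455). The collagen prolyl hydroxylases P4HA1 (log2 fold change -0.45, adjusted p = 0.225) and P4HA2 (-0.37, adjusted p = 0.198) did not pass. The histone demethylase KDM3A (-0.19), the MYC antagonist MXI1 (-0.22) and the stress gene NDRG1 (-0.17) lay at the median gene, within 0.04 of it.

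**Figure D3:**
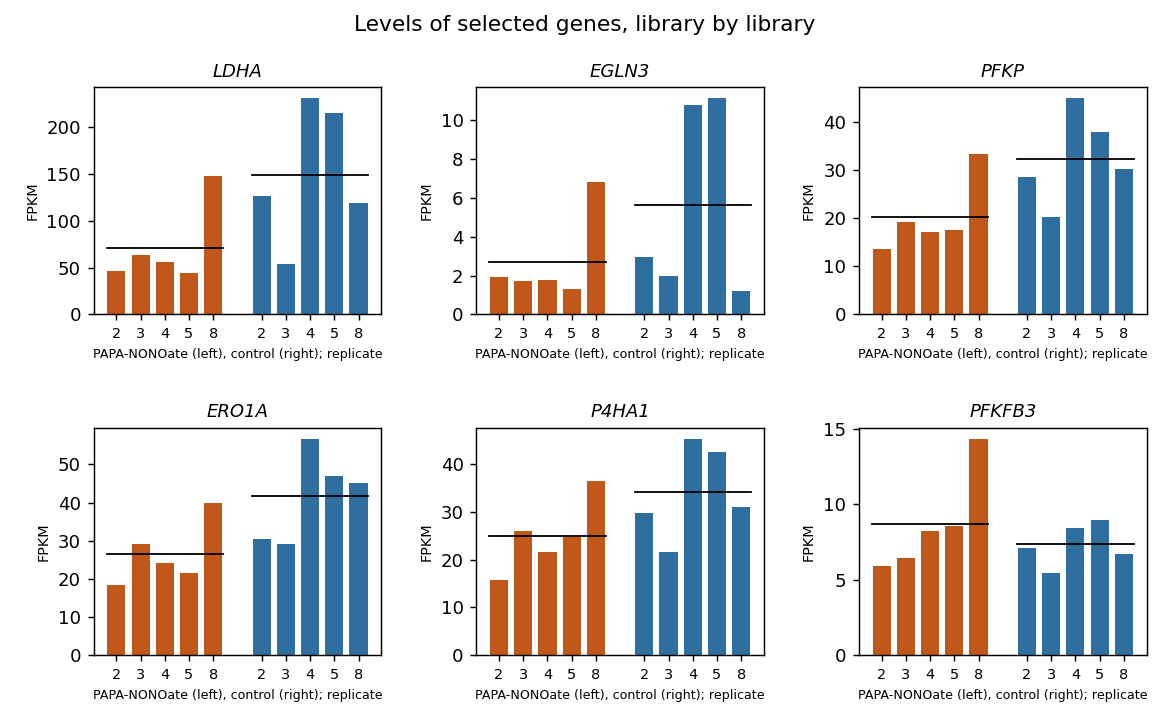
FPKM of LDHA, EGLN3, PFKP, ERO1A, P4HA1 and PFKFB3 in each library (bars; PAPA-NONOate left, control right, replicates 2, 3, 4, 5 and 8), with the mean of each group as a line. PAPA-NONOate replicate 8 is the highest treated bar in all panels. Control replicates 4 and 5 are the highest control bars. Apart from LDHA, the genes drawn were picked outside the rule, so the shared order reflects that choice. Of the 29 tested members, 21 had their highest treated value in PAPA-NONOate replicate 8. The highest control value lay in replicate 4 for 14 members and in replicate 5 for 3.

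Many members were highest, or lowest, in the same libraries of a group. Of the 29 tested members, 21 (72.4%) had their highest treated value in PAPA-NONOate replicate 8, as against 21.0% of all genes. Among controls 14 members (48.3%) were highest in replicate 4, against 15.3% of all genes, and 21 (72.4%) were lowest in replicate 3, against 19.4%. After median-ratio scaling 21 members were highest in PAPA-NONOate replicate 8 (72.4%, against 19.0% of all genes), 12 in control replicate 4 (41.4%, against 18.2%), and 18 were lowest in control replicate 3 (62.1%, against 16.2%). Control replicate 5 was highest for 3 members as deposited (10.3%, against 5.48% of all genes) and for 11 after scaling (37.9%, against 16.9%). Relative to all genes, the median member lay 0.24 above its 10-library mean (log2) in PAPA-NONOate replicate 8, 0.25 in control replicate 4 and 0.21 in control replicate 5, and 0.28 below it in control replicate 3 (-0.28). The remaining 6 libraries lay between -0.12 and -0.01. These are descriptions of single libraries and carry no test. Relative depth was 0.660 in PAPA-NONOate replicate 8, 0.801 in control replicate 4, 0.662 in control replicate 5 and 0.993 in control replicate 3, on a scale where control replicate 2 is 1, and its part in the order was not tested.

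The spread was uneven among the members. In controls the SD on the log2(FPKM + 0.5) scale was 1.27 for EGLN3 and 0.84 for LDHA, values that 0.493% and 2.29% of all genes exceeded. With PAPA-NONOate the SDs were 0.80 for EGLN3 and 0.71 for LDHA, exceeded by 4.63% and 6.56% of all genes. From lowest to highest, EGLN3 spanned 5.16-fold with PAPA-NONOate and 9.15-fold in controls, and LDHA 3.36-fold and 4.26-fold. As deposited HK2, PDK1, LDHB, BNIP3 and KDM3A varied least with PAPA-NONOate, with SDs of 0.07 to 0.12. That order depended on scaling: after median ratios their SDs were 0.13 to 0.19, and MXI1 (0.086) and PDK3 (0.090) varied least. The median member had an SD of 0.32 with PAPA-NONOate and 0.27 in controls, beside 0.28 and 0.23 for the median gene. After median-ratio scaling these were 0.28 and 0.26 for the median member, beside 0.22 and 0.20 for the median gene.

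**Figure D4:**
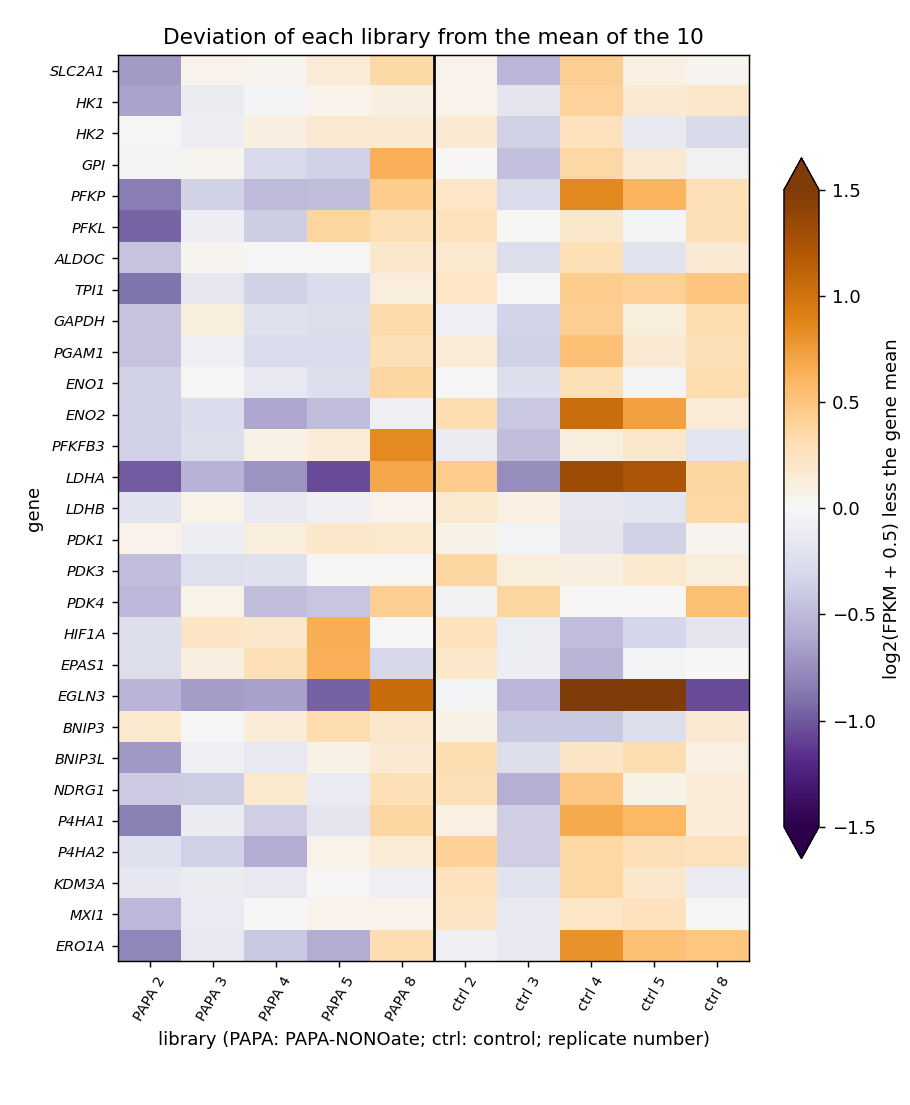
Deviation of each library from the 10-library mean of each tested gene, as log2(FPKM + 0.5), with PAPA-NONOate libraries left of the line and controls right of it. Orange columns at PAPA-NONOate replicate 8 and control replicates 4 and 5 run through most enzymes and HIF targets, and HIF1A and EPAS1 do not share them. Deviations past 1.5, as those of EGLN3 in control replicates 4 and 5, are drawn in the end colour.

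Ratios of paralogs within a library depend little on how libraries are scaled. Of 12 pairs listed, 9 had both genes measured. The pairs were chosen with earlier results of these data known, which the p-values below do not allow for. Their log2 ratios, with 0.5 FPKM added to each gene, were compared by exact two-sided permutation tests. In these tests 5 against 5 libraries can give no p under 0.00794. The PDK3 to PDK1 ratio was the only 1 without overlap, at 0.885, 1.18, 1.04, 1.15 and 1.16 with PAPA-NONOate, against 1.60, 1.46, 1.61, 1.92 and 1.41 in controls. PDK3 was thus at 0.885 to 1.18 times PDK1 in the treated libraries, and below it only in replicate 2. In controls PDK3 was at 1.41 to 1.92 times PDK1. The difference was -0.54 on the log2 scale (exact p = 0.00794, adjusted over the 9 pairs p = 0.0714). For PDK4 to PDK1 it was -0.55, with overlapping groups (exact p = 0.0635, adjusted p = 0.114). HK2 to HK1 was 0.38 higher with PAPA-NONOate (exact p = 0.0238), BNIP3 to BNIP3L 0.60 higher (exact p = 0.0238) and ENO2 to ENO1 lower, with a difference of -0.58 (exact p = 0.0397). None of the 9 pairs passed after adjustment, at adjusted p of 0.0714, 0.0714 and 0.0893 for these 3. Over 9 pairs, a single pair at the floor of 0.00794 cannot pass unless other pairs have low p as well. Not passing therefore says little about PDK3 to PDK1. The LDHA to LDHB ratio read 1.17, 1.33, 1.35, 1.02 and 3.16 with PAPA-NONOate, against 2.44, 1.12, 5.70, 5.45 and 2.03 in controls. PAPA-NONOate replicate 8 and control replicates 4 and 5 were again the highest, and the difference of -0.93 was within the spread (exact p = 0.127). For EPAS1 to HIF1A the difference was -0.14 (exact p = 0.183), with HIF1A more abundant in all 10 libraries.

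**Figure D5:**
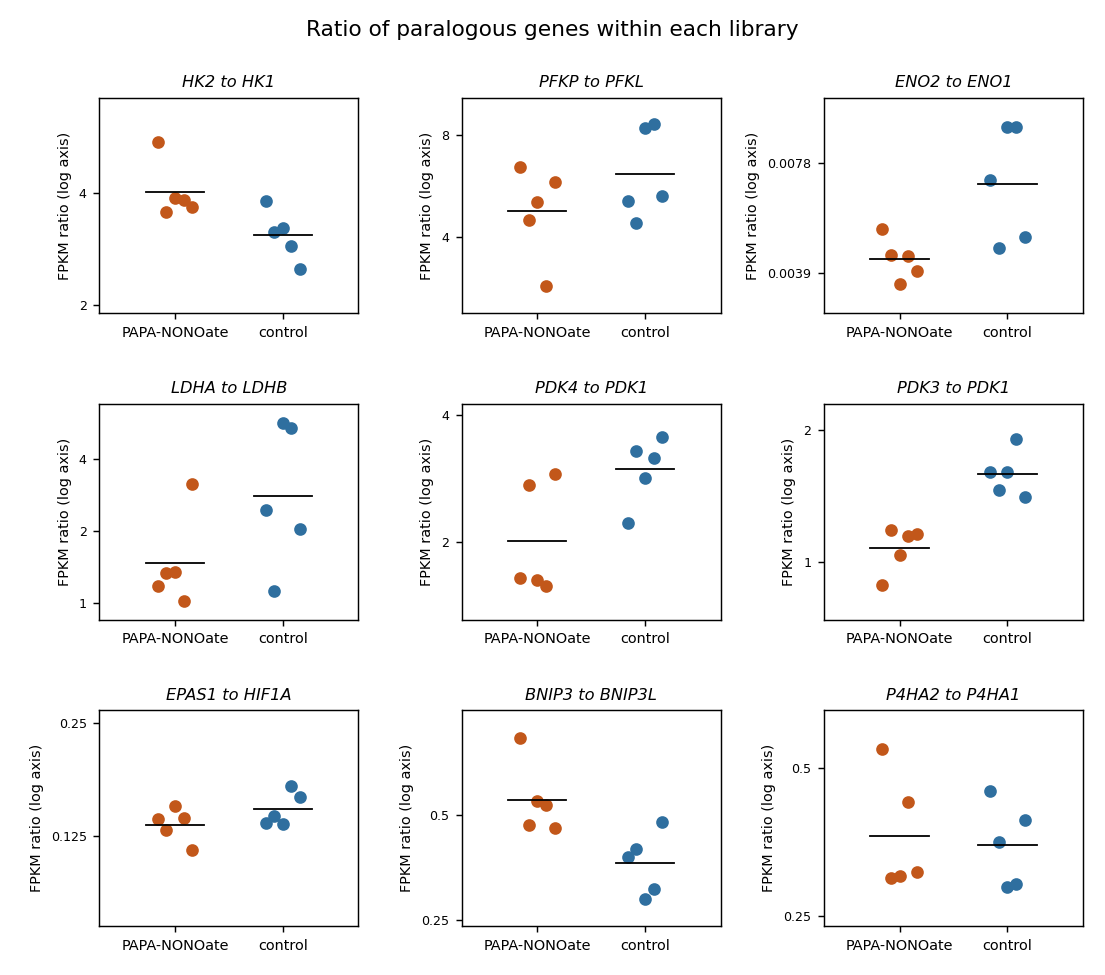
Ratio of FPKM, with nothing added, between paralogous genes in each library, on log axes, for the 9 pairs compared, with PAPA-NONOate left and control right in each panel and lines at the geometric means. The groups separate without overlap for PDK3 to PDK1 alone. The spread is widest for LDHA to LDHB.

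The rest of the pathway was taken from lists of pathway knowledge. Of 22 tested genes of glycolysis, glycogen and lactate handling 0 rose and 1 fell by limma (4.55%, beside 9.34% of all genes), while 9 had an unadjusted p under 0.05 (40.9%, beside 28.1% of all genes). The 1 called was MINPP1, an inositol phosphate phosphatase that can also act on 2,3-bisphosphoglycerate, lower by -0.69 on the log2 scale (SE 0.17, adjusted p = 0.0253). That call held in 15 of 22 settings and ended when treated replicate 3 or 8 or control replicate 2, 3 or 4 was left out, without the expression filter, and after scaling with treated replicate 2 left out. The lactate transporter genes SLC16A1 (-0.07, adjusted p = 0.862) and SLC16A3 (-0.23, adjusted p = 0.652) did not pass. In limma 0 of 6 pentose phosphate genes and 0 of 28 genes of pyruvate dehydrogenase and the citric acid cycle passed, with 1 and 8 at an unadjusted p under 0.05. The median log2 fold changes of these 3 lists were -0.40, -0.21 and -0.22. PAPA-NONOate replicate 8 was highest for 13.6%, 16.7% and 14.3% of their genes, beside 72.4% of the members. Control replicate 3 was lowest for 45.5%, 16.7% and 7.14%, beside 72.4% of the members and 19.4% of all genes, and control replicate 4 highest for 27.3%, 0% and 7.14%, beside 48.3% of the members and 15.3% of all genes. Control replicate 4 was also lowest for 27.3% of the other glycolysis genes. After median-ratio scaling it was highest for 22.7% of them and lowest for 31.8%. The other glycolysis genes thus shared the low place of control replicate 3 with the members, but had no clear high place in control replicate 4. These counts carry no test.

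Further HIF targets and oxygen-sensing genes gave 1 rise and 4 falls among 38 tested (13.2%, beside 9.34% of all genes). STC1, the hormone stanniocalcin 1, read 51.2, 67.8, 40.6, 73.3 and 73.0 FPKM with PAPA-NONOate, against 173, 87.6, 95.1, 122 and 133 FPKM in controls. The groups did not overlap, and the log2 fold change of -0.99 (SE 0.21, adjusted p = 0.0130) kept its call in all 22 settings. DDIT4, an inhibitor of mTORC1 signalling, read 41.8, 93.4, 106, 94.6 and 128 FPKM with PAPA-NONOate, against 147, 123, 354.5, 375 and 280.0 FPKM in controls. Control replicates 4 and 5 were again the highest, and only control replicate 3 fell within the treated range (log2 fold change -1.41, SE 0.35, adjusted p = 0.0260). HIF3A, a HIF alpha subunit of low level here, fell as well (-1.33, adjusted p = 0.0291), as did the lipoprotein receptor gene VLDLR (-0.64, adjusted p = 0.0454). STC2, the paralog of STC1, rose (0.79, SE 0.23, adjusted p = 0.0483). Calls for DDIT4, HIF3A, VLDLR and STC2 held in 17 of 22, 13 of 21, 7 of 22 and 9 of 22 settings. CA9, carbonic anhydrase 9 and 1 of the most HIF-dependent genes in mammals, was picked after its values were seen. It stood at 3.70, 8.94, 5.12, 6.25 and 16.6 FPKM with PAPA-NONOate, against 16.6, 7.85, 41.4, 39.2 and 13.8 FPKM in controls. The libraries highest for LDHA were also highest for CA9, which did not pass (log2 fold change -1.41, adjusted p = 0.0701). VEGFA, also picked after its values were seen, peaked at 292 FPKM in PAPA-NONOate replicate 8 and 313 FPKM in control replicate 4, against 138 to 177 FPKM in the other treated and 199.7 to 216 FPKM in the other control libraries. PAPA-NONOate replicate 8 was highest for 31.6% of these 38 genes, and control replicate 3 lowest for 44.7%, beside 21.0% and 19.4% of all genes. After median-ratio scaling these shares were 42.1% and 36.8%, beside 19.0% and 16.2% of all genes and 72.4% and 62.1% of the members. Control replicate 5 was then highest for 47.4%, beside 16.9% of all genes and 37.9% of the members. Control replicate 4 was highest for 18.4%, beside 18.2% of all genes. These counts carry no test.

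Markers of other cells were read in the same comparison, in which 9.34% of all genes were called, 1.93% higher and 7.41% lower. Fibroblast markers summed to 289 to 1059 FPKM with PAPA-NONOate and 972 to 1913 FPKM in controls, and 3 of 7 fell, LUM and DCN among them. Macrophage and myeloid markers summed to 150.2 to 421 FPKM with PAPA-NONOate and 440.2 to 747 FPKM in controls, without overlap, and 4 of 10 fell, CD36 and C1QB among them. All 4 tested lymphocyte markers fell, of 10 in the list, PTPRC and CD3E among them, with sums of 29.4 to 77.5 FPKM with PAPA-NONOate and 85.0 to 136 FPKM in controls. Smooth muscle and pericyte markers gave 1 rise (CNN1) and 1 fall (RGS5) of 8. Melanocyte markers gave 0 calls of 6 in the fit that ignores replicate numbers (0 at an unadjusted p under 0.05). Endothelial markers gave 1 fall (TEK) of 8 (12.5%), and red cell and thrombocyte markers 1 fall (ITGA2B) of 6 (16.7%). Of those 6, 3 had a positive log2 fold change, and the median was 0.26. After median-ratio scaling 1 of them was called higher and 0 lower. The part of these cells in the values of TPI1, LDHA or other members was not tested. Red cell and thrombocyte markers, whose nucleated cells in birds carry RNA, summed to 1443, 1547, 1142, 2058 and 2145 FPKM with PAPA-NONOate and to 974, 487, 1212, 2769 and 952 FPKM in controls. Like LDHA they were highest in PAPA-NONOate replicate 8 among treated libraries, and in replicates 4 and 5 among controls, with control replicate 3 lowest. PAPA-NONOate replicate 5 was second highest for these markers and lowest of its group for LDHA. Their part in the order of the libraries was not tested.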

How the data were processed

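Poly(A)-selected RNA of 10 choroids went into directional libraries (100 ng input), per the labels' protocols. The authors deposited 1 table of FPKM, with SAMtools, Cufflinks and the build GRCg6a per the submitters' processing notes. The sources used here give no versions, aligner, annotation or handling of fragments shared by near-identical genes. In all 14 values of 10 genes stood at 999999999 and were treated as missing, none of them in a member. Without counts no counting intervals are given.

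Libraries were grouped by title. limma 3.58.1 (R 4.3.3, mean-variance trend, 8 residual and 4.83 prior degrees of freedom) was fitted to log2(FPKM + 0.5) of the 11363 genes with at least 1 FPKM in at least 5 libraries, with Benjamini-Hochberg adjustment over all of them and a threshold of 0.05. Fold changes on this scale understate those of weak genes. Relative depth was taken from steps between values under 0.15 FPKM. Paralog ratios were tested by exact two-sided permutation, adjusted over 9 pairs.

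The members, lists and pairs were chosen with earlier results of these data known. Named by rule were all members, with values by library for those called, those without overlap, HIF1A, SLC2A1, LDHA and GAPDH, and up to 6 called genes of each further pathway list and up to 2 of each marker list. EGLN3, PFKP, PFKFB3, PDK1, BNIP3, ERO1A, CA9 and VEGFA were given by library, and SLC16A1 and SLC16A3 named, after their values were seen. P4HA1 was drawn by library outside this rule as well. Alternatives were pseudocounts of 0.1 and 1, no filter and one at 5 FPKM, library weights, robust estimates, scaling by median ratios, normalization by quantiles, the replicate number as a block, and each library left out. Median-ratio scaling without PAPA-NONOate replicate 2, and adding the 3 genes matched by synonym, were chosen after seeing the data. Figures were drawn with matplotlib 3.10.9.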

Additional observations from a re-analysis of the deposited data

Results flagged for a closer look

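In 5 of 58 groups of member values (29 genes, 5 libraries each) 1 library stood far from the other 4, by Dixon's criterion at 95%. Chance alone gives about 1 in 20 for independent groups of normally distributed values. These groups share the same 10 libraries and were screened as FPKM, so that rate is no test of the 5. In PAPA-NONOate replicate 8, LDHA read 147.9 FPKM, against 44.0 to 62.8 FPKM in the other treated libraries. EGLN3 read 6.81 FPKM there (6.806), against 1.32 to 1.94 FPKM, and PFKP 33.4 FPKM, against 13.5 to 19.2 FPKM. In controls PDK3 was at 22.2 FPKM (22.24) in replicate 2, against 18.4 to 19.5 FPKM, and P4HA2 at 7.66 FPKM (7.662) in replicate 3, against 12.1 to 13.4 FPKM. The log2 fold changes without these libraries were -1.35 for LDHA, -1.06 for EGLN3 and -0.88 for PFKP without PAPA-NONOate replicate 8. They were -0.31 for PDK3 without control replicate 2 and -0.51 for P4HA2 without control replicate 3.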

How the results depend on the processing

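Each library limits these values: 5 per group, with depth unknown. With 1 library left out, calls over all genes ran from 158 to 254 higher and from 429 (without control replicate 2) to 1580 (without PAPA-NONOate replicate 5) lower, members called higher from 0 to 0 and lower from 0 to 4, other pathway genes called from 0 to 1 higher and from 1 to 16 lower, and pairs with an adjusted p at most 0.05 from 0 to 3 (2 without control replicate 2, 3 without control replicate 8). Of 29 tested members, the 4 lower without PAPA-NONOate replicate 8 were TPI1, LDHA, PFKP and ERO1A, where 565 of all 11363 genes were lower. The 3 lower without control replicate 3 were TPI1, LDHA and ENO2, where 549 of all 11363 genes were lower. The cause was not tested. Members called were 0 higher and 0 lower without the filter, 3 and 0 after median-ratio scaling (also with PAPA-NONOate replicate 2 left out), 2 and 1 after quantile normalization, and 0 and 2 with library weights, where PDK3 joined TPI1. All genes called were 799 higher and 731 lower after median-ratio scaling (700 and 583 with PAPA-NONOate replicate 2 left out). They were 733 higher and 680 lower after quantile normalization, 383 and 1423 with library weights, and 156 and 449 of 8100 with the filter at 5 FPKM. Without the filter they were 204 and 575 of 19277 genes, and with the pseudocount of 0.1 they were 207 and 792 of 11363. The lists of other pathway genes had 22, 6, 28 and 38 genes tested in the main fit. Other pathway genes called were 1 higher and 5 lower as deposited, and 0 and 5 with the pseudocount of 0.1. Without the filter they were 0 and 1, and with the filter at 5 FPKM 0 and 3. After median-ratio scaling they were 9 and 5, after quantile normalization 5 and 5, and with library weights 4 and 9. With PAPA-NONOate replicate 2 left out and median-ratio scaling they were 10 and 1. Adding the 3 genes matched by synonym changed no count of members.

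The median of the members relative to all genes ran from -0.14 (without the filter, relative to 19277 genes) to 0.03 over the settings. Between single libraries the deviation of the median member had an SD of 0.18, which is not the error of a difference between groups. Signs turned after median-ratio scaling, with or without the block, for SLC2A1 (0.15), GPI (0.18), ALDOC (0.11), GAPDH (0.0008), ENO1 (0.0498), LDHB (0.0731) and NDRG1 (0.0171). With PAPA-NONOate replicate 2 also left out they were 0.24, 0.11, 0.14, 0.0149, 0.0446, 0.0378 and 0.0203, and PFKL was at 0.0129. After quantile normalization SLC2A1 (0.0807), GPI (0.12), ALDOC (0.0052), LDHB (0.0007) and KDM3A (0.0318) turned, and with library weights SLC2A1 (0.0913), GPI (0.0403) and ALDOC (0.0032). Leaving out 1 library moved ALDOC from -0.15 to 0.0213, GPI from -0.17 to 0.0828, PFKFB3 from -0.0077 to 0.29, SLC2A1 from -0.17 to 0.13 and the P4HA2 to P4HA1 ratio from -0.0671 to 0.16. None of these single genes passed in any setting run.

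Same-numbered libraries correlated in their deviations from the group means at 0.00, 0.29, 0.30, -0.02 and 0.19 for replicates 2, 3, 4, 5 and 8. In each group 3 of 5 libraries correlated best with their own number. The highest correlation, 0.34, joined PAPA-NONOate replicate 5 to control replicate 2. Melanocyte marker sums were highest in replicate 2 of both groups, at 185 FPKM with PAPA-NONOate and 459 FPKM in controls. Replicate 4 came next in both groups (61.5 and 141 FPKM), and the order of the remaining replicates differed. Whether the numbers mark pairs cannot be told from these values or the labels, and the main fit did not use the numbers. With the replicate number as a block 212 genes were called higher and 678 lower, and TPI1 stayed the 1 member called (adjusted p = 0.0441). The block also called 4 of 6 melanocyte markers lower (TYR, TYRP1, PMEL and MLANA, adjusted p from 0.00765 to 0.0150), where the fit without it called 0, and 3 of 22 other glycolysis, glycogen and lactate genes lower, against 1 without it. With the block and median-ratio scaling 940 genes were higher and 917 lower, with 3 members higher and 0 lower. Other pathway genes were then 8 higher and 7 lower. An exact sign-flip test over the 5 numbers can give no p under 0.0625, a floor that HK2 to HK1, ENO2 to ENO1, PDK4 to PDK1 and PDK3 to PDK1 reached.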
